A study of Homo sapiens with 4 samples.

Results

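The RNA polymerase I apparatus and 4 abundant nucleolar proteins were examined as 10 genes in untreated HaCaT cells, a spontaneously immortalized human keratinocyte line. The genes were chosen by name as machinery on which the deacetylase SIRT7 is known to act: the polymerase subunits POLR1A, POLR1B and POLR1C, the initiation factors UBTF, RRN3 and TAF1B, and the nucleolar proteins NCL, FBL, NPM1 and DDX21. Each of the 10 had 1 row among 44591 gene rows, of which 19233 were protein-coding, and none was left out. Total RNA was sequenced from 4 replicates, which the study calls biological repeats, all without treatment. The labels give medium with 12% fetal bovine serum for all 4, whereas the study's methods give 10% for this line. No second condition was sequenced, so the genes were compared with each other and between replicates, and any p-value measures only the spread between these 4 samples.

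RNA polymerase I transcribes the ribosomal DNA repeats in the nucleolus into the long precursor of ribosomal RNA (rRNA). UBTF coats the repeats and bends them into an active form, the SL1 complex, which contains TAF1B, marks the promoter together with UBTF, and RRN3 bridges the polymerase to SL1 so that initiation can begin. The precursor is then modified and cut while NCL, FBL, NPM1 and DDX21 act on it and on the forming ribosome, and in dividing epithelial cells the whole pathway supports protein synthesis for growth. SIRT7 associates with RNA polymerase I and UBTF in the nucleolus, and FBL, DDX21 and the polymerase subunit POLR1E are among its known substrates.

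The levels are in TPM, the count per base of gene length scaled to 1000000 over the protein-coding rows of a library. The libraries held 17056035 to 73082279 counts, the deepest being replicate 1. Replicate 1 stood apart from the others: protein-coding rows took 76.1% of its counts against 95.3% to 96.4%, and its Spearman correlation with the others over 12165 protein-coding genes with a mean TPM above 1 (called detected here) was 0.754 to 0.780, against 0.944 to 0.967 among replicates 2 to 4. These correlations run across genes, which are not independent. Signal recognition particle RNA took 13.1% of the counts of replicate 1, against 0.0333% to 0.207% in the others. Small nuclear RNA took 4.04%, against 0.00101% to 0.00471%. Several results that rest on replicate 1 are therefore given with and without it. The comparisons between replicates for the other genes of the pathway, given further below, were not repeated without replicate 1. Calls of higher values in other replicates there may thus rest on replicate 1. All 6 keratinocyte markers were detected, with a summed TPM between 9877 and 15026. The sum was 2.22 to 9.32 for 5 fibroblast markers, 1.36 to 3.52 for 4 melanocyte markers with TYR at 0, 3.40 to 8.92 for 3 immune markers and 0.859 to 2.36 for 3 endothelial markers with PECAM1 at 0.

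All 10 genes were detected in every replicate, with counts between 202 and 51736. Their mean levels spanned 81.0-fold, from NPM1 at 1027 to TAF1B at 12.7 TPM, and their median was 46.3 TPM against 24.5 TPM over all detected genes. By mean level NCL stood at percentile 98.4 of the detected genes, FBL at 92.9 and DDX21 at 89.4, and the machinery genes ran from percentile 32.2 (TAF1B) to 70.4 (POLR1C). In bulk RNA, a lower level can mean fewer cells that express a gene or less RNA per cell, which cannot be told apart. The 4 nucleolar genes were the highest of the 10, above each of the 6 genes of the polymerase and its initiation factors in each of the 4 replicates (24 of 24 pairs in each). The margin was narrowest in replicate 3, where DDX21 was at 103 TPM and POLR1C, the highest of the machinery, at 63.8 TPM. Summed, the 4 nucleolar genes reached 2010.4 ± 357 TPM (SD, n = 4) and the 6 machinery genes 182 ± 28.3 TPM (SD, n = 4). The ratio of the sums was 10.3, 10.04, 12.4 and 11.6 in replicates 1 to 4, averaging 11.1 ± 1.12 (SD, n = 4). This ratio rests on the deposited gene lengths, and its SD does not cover that choice. NPM1 alone made up 73.9%, 44.2%, 50.7% and 39.4% of the nucleolar sum in replicates 1 to 4. The order holds for these 10 genes and not for the 2 classes as a whole. By mean level, 10 other polymerase I subunits spanned 27.4 to 209 TPM and 9 other nucleolar factors 27.8 to 107 TPM.

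**Figure D1:**
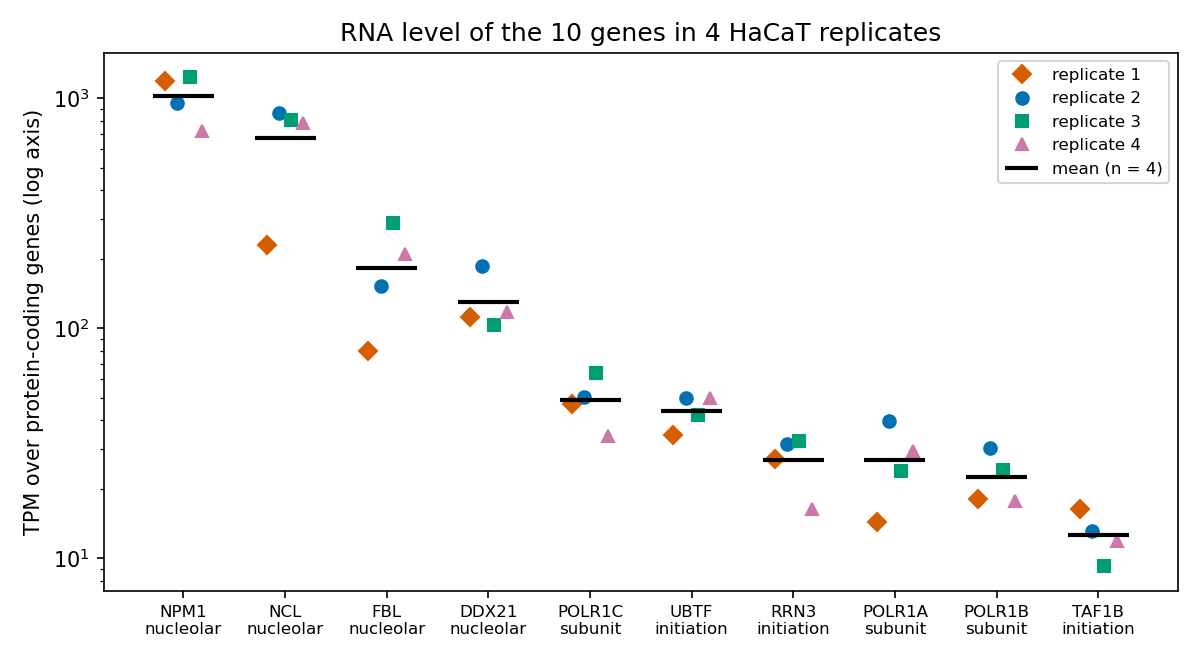
TPM over protein-coding genes (log axis) of the 10 genes, ordered by their mean, with 1 symbol for each of the 4 replicates and a black line at the mean. The nucleolar genes lie above the machinery genes in every replicate, and NCL in replicate 1, at 231, lies apart from its other values of 783 to 863.

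The polymerase subunits were examined first. POLR1A (chromosome 2, 86251569 to 86333278, minus strand; positions are hg19, the build in the submitters' notes) encodes the largest, catalytic subunit. Its level was 14.5, 39.6, 23.9 and 29.2 TPM in replicates 1 to 4, averaging 26.8 ± 10.5 (SD, n = 4). It was lowest in replicate 1, and the mean of replicates 2 to 4, 30.9 ± 8.003 (SD, n = 3), was 2.14 times that value.

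POLR1B (chromosome 2, 113299492 to 113334730, plus strand), which forms the active centre together with POLR1A, was at 18.1, 30.3, 24.3 and 17.8 TPM, a mean of 22.6 ± 5.90 (SD, n = 4). Replicates 1 and 4 were nearly equal and lay below the rest. POLR1C (chromosome 6, 43484762 to 43497114, plus strand) is a subunit shared with RNA polymerase III. Its level was 46.7, 50.4, 63.8 and 33.9 TPM, a mean of 48.7 ± 12.3 (SD, n = 4), and unlike POLR1A it was lowest in replicate 4. XPO5, with 2209 to 4124 counts, overlaps 7047 bases of POLR1C on the opposite strand. Whether the counting used strand is not given in the sources used here, so reads of the 2 genes cannot be told apart in their shared part.

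Among the initiation factors, UBTF (chromosome 17, 42282401 to 42298994, minus strand) varied least of the 10 genes over all 4 replicates. It was at 34.3, 49.7, 42.1 and 49.6 TPM, a mean of 43.9 ± 7.35 (SD, n = 4), and its highest value was 1.45 times its lowest. The 2 antisense rows over UBTF together held 121, 27, 11 and 52 counts in replicates 1 to 4, against 1774 to 4475 counts of UBTF.

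RRN3 (chromosome 16, 15153879 to 15188192, minus strand), also known as TIF-IA, had 27.1, 31.4, 32.3 and 16.4 TPM, a mean of 26.8 ± 7.28 (SD, n = 4). Only replicate 4 stood low, while replicates 1 to 3 were close together. The whole span of RRN3 is covered on the opposite strand by PDXDC1, which had 1644 to 6053 counts, so RRN3 reads cannot be told from antisense reads there. RRN3 also has 3 near copies, RRN3P1, RRN3P2 and RRN3P3, which held 17.4%, 15.5%, 11.4% and 19.6% of the combined counts of RRN3 and its copies in replicates 1 to 4, and the counting could have split reads between them.

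TAF1B (chromosome 2, 9983571 to 10074545, plus strand), the SL1 subunit that resembles the general factor TFIIB, was the lowest of the 10 by its mean. Its values were 16.4, 13.2, 9.25 and 11.9 TPM, a mean of 12.7 ± 2.96 (SD, n = 4), from 967, 213, 202 and 215 counts. It was the only one of the 10 with its highest value in replicate 1. In that replicate TAF1B was above POLR1A, whereas in replicates 2 to 4 it was the lowest of all.

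NPM1 (chromosome 5, 170814708 to 170837888, plus strand), a histone and ribosome assembly chaperone that shuttles between nucleolus and cytoplasm, had 1196, 951, 1234 and 725 TPM, a mean of 1027 ± 237 (SD, n = 4). This placed it at percentile 98.9 of the detected genes, with 132 genes above it. The files list 49 NPM1 pseudogene rows, of which 20 had any count, and together they held 0.719% to 1.38% of the combined counts, so adding them would raise NPM1 by little more than that share.

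NCL (chromosome 2, 232319459 to 232329205, minus strand), nucleolin, binds nascent rRNA precursor and ribosomal chromatin. Its level was 231 TPM in replicate 1 and 863, 808 and 783 TPM in replicates 2 to 4. Over all 4 it averaged 671 ± 295 (SD, n = 4). Replicates 2 to 4 lay within 1.10-fold of each other, the narrowest range of the 10 genes among those replicates, and their mean of 818 ± 41.0 (SD, n = 3) was 3.54 times replicate 1. NCL was thus one of the most variable genes over all 4 replicates, with a coefficient of variation (CV, the SD as a percent of the mean) of 44.0%, and the least variable without replicate 1, with 5.01%.

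Introns of NCL carry small nucleolar RNAs (snoRNAs), the guides that FBL and the pseudouridine synthase DKC1 use to modify rRNA, and 3 of them have rows of their own. Their sequences are shown because they link the NCL gene to the enzymes described here. They are from GENCODE release 29, given 5′ to 3′, with capitals for TGATGA (the core of box C) and CTGA (box D) in the C/D box snoRNAs SNORD20 and SNORD82 and for the ACA trinucleotide near the 3′ end of the H/ACA box snoRNA SNORA75.
SNORD20, GRCh38 chr2:231456444-231456523, minus strand: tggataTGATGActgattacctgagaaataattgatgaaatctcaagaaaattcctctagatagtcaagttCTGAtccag
SNORD82, GRCh38 chr2:231460371-231460440, minus strand: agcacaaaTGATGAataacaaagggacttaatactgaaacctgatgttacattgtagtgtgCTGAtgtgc
SNORA75, GRCh38 chr2:231455800-231455936, minus strand: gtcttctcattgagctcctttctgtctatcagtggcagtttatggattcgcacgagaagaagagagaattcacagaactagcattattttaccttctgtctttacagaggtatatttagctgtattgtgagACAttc
SNORA75 had 22, 4, 3 and 0 counts in replicates 1 to 4, SNORD20 had 25, 3, 0 and 3, and SNORD82 had 4, 0, 0 and 0. Counts of 3 or fewer were taken as at the limit of detection, so only SNORA75 exceeded it outside replicate 1. The host NCL had 15267 to 19724 counts in the same libraries, so these rows held few reads beside it in each replicate. All snoRNA rows together took 0.425% of the counts of replicate 1, the deepest library, against 0.0058% to 0.0117% in the others. How the libraries were selected for RNA size is not given in the sources used here.

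FBL (chromosome 19, 40325093 to 40337054, minus strand) encodes fibrillarin, the methyltransferase of the C/D box particles. Its level was 79.3, 152, 288 and 212 TPM, a mean of 183 ± 88.4 (SD, n = 4), the largest CV of the 10 at 48.4%. It was lowest in replicate 1, and the mean of replicates 2 to 4, 217 ± 67.8 (SD, n = 3), was 2.74 times that value. The highest value, in replicate 3, was 1.89 times that of replicate 2. DDX21 (chromosome 10, 70715879 to 70744825, plus strand), an RNA helicase that acts on the rRNA precursor, had 112, 188, 103 and 118 TPM, a mean of 129.9 ± 38.9 (SD, n = 4). Replicate 2 was high and the other three lay close together.

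For 5 of the 10 genes no other row overlapped the span, with transfer RNA rows left out of the search: POLR1A, TAF1B, FBL, NPM1 and DDX21. Over the 10 genes the median CV was 26.6%, against 37.8% over all detected genes. Without replicate 1 the medians were 26.1% and 24.8%, so the 10 genes had the smaller median only with replicate 1 included.

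The order of the levels was then compared between neighbours, as differences of log2(TPM + 1) within a replicate. Neighbours were set by the mean TPM of these same replicates. The direction of each mean difference was thus largely fixed in advance, and the test below gives no support to the order. NCL exceeded FBL by 1.85 ± 0.46, DDX21 exceeded POLR1C by 1.39 ± 0.55, UBTF exceeded RRN3 by 0.72 ± 0.56 and POLR1B exceeded TAF1B by 0.78 ± 0.54 (SD, n = 4), each in 4 of 4 replicates. For each of these an exact permutation test that flips the signs of the differences (two-sided) gave p = 0.13, the smallest value that 4 replicates allow, so no difference could pass 0.05. The other 5 neighbouring pairs differed by less than the spread between replicates. NPM1 exceeded NCL by 0.75 ± 1.12 (SD, n = 4; exact p = 0.25) and, with the deposited gene lengths, was below it in replicate 4. Without replicate 1 the difference was 0.21 ± 0.37 (SD, n = 3). FBL and DDX21 differed by 0.38 ± 0.93 (SD, n = 4; exact p = 0.5), POLR1C and UBTF by 0.13 ± 0.50 (SD, n = 4; exact p = 0.625), RRN3 and POLR1A by 0.04 ± 0.74 (SD, n = 4; exact p = 0.875), and POLR1A and POLR1B by 0.18 ± 0.43 (SD, n = 4; exact p = 0.5).

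With the deposited lengths, neighbours whose order changed between replicates were NPM1 and NCL, FBL and DDX21, POLR1C and UBTF, and RRN3, POLR1A and POLR1B. TAF1B stayed below POLR1B throughout. This order was sensitive to the length assigned to each gene. When every annotated exon was included in the length, 4 of 10 genes kept their place (NPM1, NCL, POLR1A and TAF1B). POLR1C, with 5550 in place of 1481 bases, was then at 20.8 TPM and ninth of the 10, and FBL, with 2173 in place of 1165 bases, was at 155 TPM, below DDX21 at 205 TPM. NPM1 was then above NCL in every replicate, at 1.10 times NCL in replicate 4. The nucleolar gene was still above the machinery gene in every replicate in 24 of 24 pairs.

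Ratios of 2 genes within a library do not depend on its depth or on other classes of RNA, and they were taken per kilobase with exact 95% (Clopper-Pearson) intervals. These cover only the error of counting, since the reads carry no molecular identifiers. The ratios were not corrected for base composition, which moved with the differences of replicate 1 (below). The 2 largest subunits are present once each in the enzyme, yet their RNA ratio was not fixed. POLR1A to POLR1B was 0.799 in replicate 1 (interval 0.757 to 0.843), 1.31 in replicate 2 (interval 1.22 to 1.41), 0.985 in replicate 3 (interval 0.915 to 1.06) and 1.64 in replicate 4 (interval 1.503 to 1.79). No 2 of these intervals overlapped, so the replicates differed by more than counting error. On which side of 1 they lay rests on the gene length. With every annotated exon in the length (the union of exons) the ratio was 0.579, 0.949, 0.714 and 1.19. Without any length correction its mean log2 value was 0.82, against 0.19 with the deposited length.

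POLR1C to POLR1A was 3.23 (3.04 to 3.43), 1.27 (1.15 to 1.402), 2.67 (2.46 to 2.90) and 1.16 (1.04 to 1.297), above 1 in each replicate, with the intervals of replicates 2 and 4 overlapping. Without any length correction its mean log2 ratio was -1.61 and with the union of exons -0.32, against 0.92 with the deposited length, so the sign of this ratio rests on the length of 1481 bases. Against the largest subunit of RNA polymerase II, POLR2A, the ratio of POLR1A was 0.481, 0.278, 0.316 and 0.183, below 1 in 4 of 4 replicates and with no overlapping intervals. Against POLR3A, the largest subunit of RNA polymerase III, it was 0.868, 1.25, 1.06 and 1.49, below 1 in replicate 1 only. With the union of exons the ratio of POLR1A to POLR3A was 0.735, 1.05, 0.894 and 1.26, so its side of 1 rests on the length too.

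Between the initiation factors, UBTF to RRN3 was 1.27, 1.58, 1.302 and 3.02, with replicate 4 high and the intervals of replicates 1 and 3 overlapping. TAF1B to RRN3 was 0.605, 0.421, 0.286 and 0.723, below 1 in every replicate. Replicate 4, where RRN3 was lowest, had the highest value of both ratios.

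Among the nucleolar genes, the ratio of NPM1 to NCL had the widest range of the 10 ratios over all 4 replicates, which rests on replicate 1. NPM1 to NCL was 5.17 in replicate 1 (interval 5.08 to 5.27). Replicate 2 had 1.10 (interval 1.08 to 1.13), replicate 3 had 1.53 (interval 1.498 to 1.56) and replicate 4 had 0.925 (interval 0.902 to 0.949), a 5.59-fold range with no overlap of the intervals. Over replicates 2 to 4 alone its range was 1.65-fold, less than in 8 of the other ratios, and that of TAF1B to RRN3 was the widest at 2.53-fold. DDX21 to NCL was 0.483 in replicate 1 and 0.217, 0.127 and 0.150 in the others. With the union of exons DDX21 to NCL was 1.23, 0.555, 0.325 and 0.383, above 1 in replicate 1. NPM1 to NCL was then 6.13, 1.31, 1.81 and 1.10, above 1 in each replicate. The side of 1 thus rests on the length for both. FBL to NCL was 0.343, 0.177, 0.356 and 0.270, so replicate 1 did not stand apart there: its interval of 0.328 to 0.359 overlapped that of replicate 3, 0.343 to 0.370. FBL and NCL were both low in replicate 1, and their ratio was not.

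**Figure D2:**
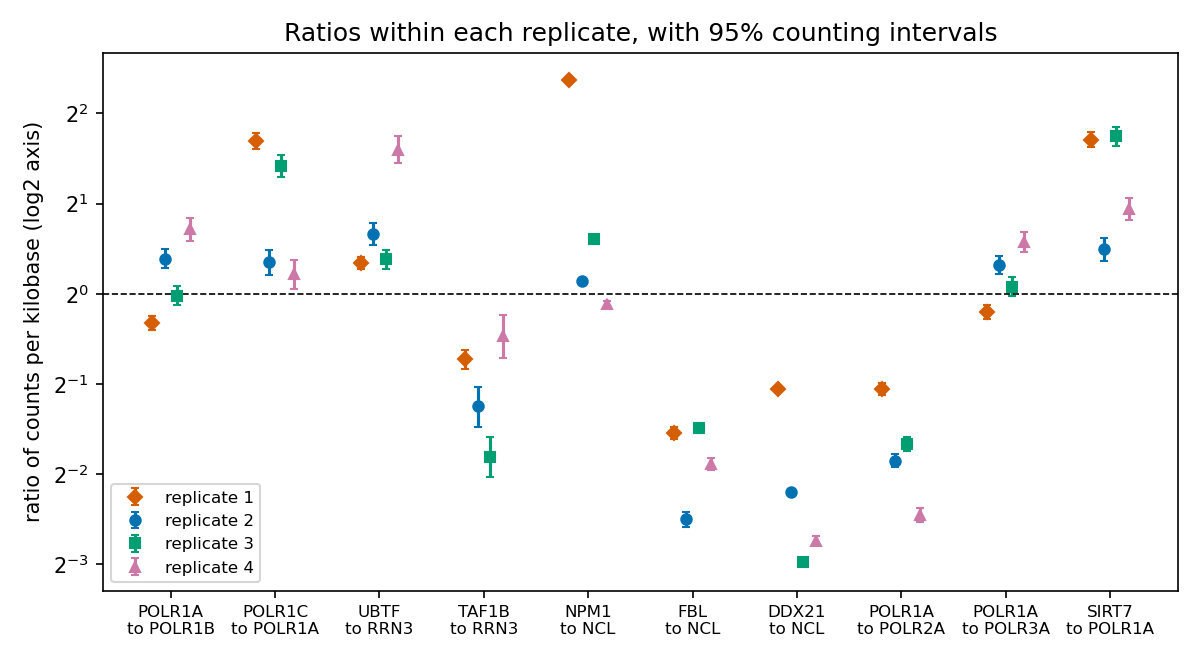
Ratios of 2 genes per kilobase within each of the 4 replicates (log2 axis), with bars for 95% counting intervals and a dashed line at 1. NPM1 to NCL in replicate 1, at 5.17, is the highest ratio. With the deposited gene lengths shown, 7 of the 10 pairs stay on one side of 1 in every replicate.

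Each replicate was compared with the mean of the other 3 as a difference of log2(TPM + 1), and values over 2-fold from it were counted. The 4 comparisons share libraries, so a low value in one raises the others. In replicate 1, 3 of the 10 genes were over 2-fold lower, NCL with a difference of -1.82, FBL with -1.39 and POLR1A with -1.02, beside 20.1% of all detected genes. None of the 10 was over 2-fold higher there, beside 17.4% of detected genes. In replicate 3 FBL was over 2-fold higher, with a difference of 1.07, beside 3.05% of detected genes, and none of the 10 was lower, beside 14.4%. No gene of the 10 passed the limit in replicate 2, where 7.83% of detected genes were higher and 1.38% lower, or in replicate 4, where 6.89% were higher and 1.99% lower.

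The median difference of the 10 genes was -0.30, 0.30, 0.28 and -0.11 in replicates 1 to 4, against 0.03, 0.12, -0.23 and 0.13 over all detected genes. In replicate 3, 6 of the 10 genes lay above 0 and 4 below. The median of all detected genes there was 0.06 with TMM and 0.03 with median-of-ratios scaling, so its sign rests on the scaling. POLR1A was close to the limit, and with replicate 2 left out its difference was -0.83. Without replicate 1, 0 of the 10 genes passed the limit in any replicate, and the difference of FBL in replicate 3 was 0.68. Scaled to TPM over all rows, in which the abundant small RNAs of replicate 1 count, 17 values passed it and the median of all detected genes in replicate 1 moved to -1.27. Relative to that median NCL was at -2.06, FBL at -1.62 and POLR1A at -1.09, and FBL in replicate 3, relative to the median there, at 1.38, and these 4 were again the values past the limit.

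**Figure D3:**
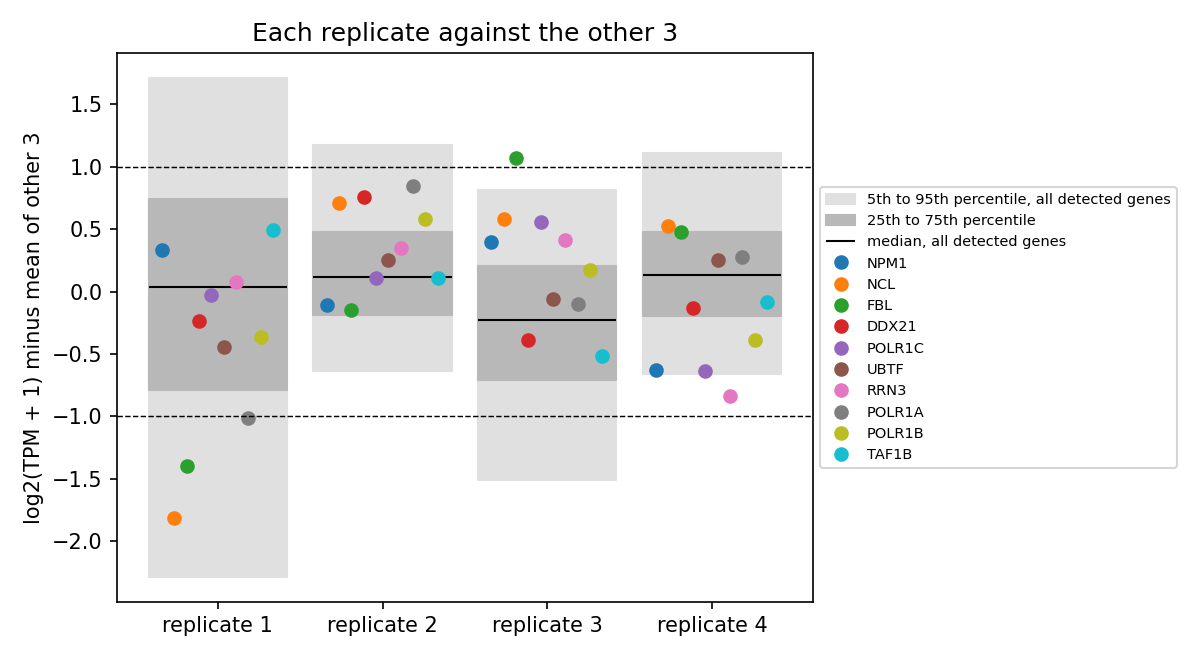
Difference of log2(TPM + 1) from the mean of the other 3 replicates for the 10 genes (points), over the 25th to 75th (dark) and 5th to 95th (light) percentiles and the median (line) of 12165 detected genes. NCL, FBL and POLR1A lie below the dashed 2-fold line in replicate 1, and FBL above it in replicate 3.

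Base composition moved with the differences of replicate 1. Split into 3 equal classes by the GC content of their transcripts, the detected genes had median differences of 0.72, -0.05 and -0.64 from the lowest to the highest GC class, and 5.35%, 17.6% and 36.9% of them were over 2-fold lower. FBL, with 57.9% GC, is in the highest class, and NCL (47.2%) and POLR1A (51.7%) are in the middle one. UBTF, with 54.99% GC, is in the highest class too and differed by -0.44, and the 4 genes in the lowest class differed by 0.50 (TAF1B), 0.34 (NPM1), 0.08 (RRN3) and -0.24 (DDX21). The part of base composition in these differences was not tested.

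The promoters of the 3 genes over 2-fold lower in replicate 1, beside 20.1% of detected genes, are shown. They run from 250 bases before to 50 after the start (RefSeq, GRCh38.p14, 5′ to 3′ on the gene's strand). Whether the 3 genes are regulated together was not tested. The motifs searched, on both strands, were CACGTG (the E-box, which reads the same on both) and CCGGAA (an ETS-type motif, TTCCGG on the other strand). Matches are in capitals.
NCL promoter, GRCh38.p14 chr2:231464435-231464734, minus strand: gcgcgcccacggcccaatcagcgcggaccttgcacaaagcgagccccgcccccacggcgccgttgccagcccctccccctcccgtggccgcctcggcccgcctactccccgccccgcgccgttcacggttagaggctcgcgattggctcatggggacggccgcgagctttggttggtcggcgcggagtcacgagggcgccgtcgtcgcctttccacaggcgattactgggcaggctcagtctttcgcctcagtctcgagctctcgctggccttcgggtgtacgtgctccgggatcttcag
FBL promoter, GRCh38.p14 chr19:39846330-39846629, minus strand: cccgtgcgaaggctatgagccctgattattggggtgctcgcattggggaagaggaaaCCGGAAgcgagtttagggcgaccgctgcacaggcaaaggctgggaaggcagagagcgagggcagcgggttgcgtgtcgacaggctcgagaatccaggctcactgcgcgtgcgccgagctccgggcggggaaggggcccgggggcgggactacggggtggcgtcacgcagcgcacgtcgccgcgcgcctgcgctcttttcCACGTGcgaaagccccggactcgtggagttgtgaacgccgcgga
POLR1A promoter, GRCh38.p14 chr2:86105837-86106136, minus strand: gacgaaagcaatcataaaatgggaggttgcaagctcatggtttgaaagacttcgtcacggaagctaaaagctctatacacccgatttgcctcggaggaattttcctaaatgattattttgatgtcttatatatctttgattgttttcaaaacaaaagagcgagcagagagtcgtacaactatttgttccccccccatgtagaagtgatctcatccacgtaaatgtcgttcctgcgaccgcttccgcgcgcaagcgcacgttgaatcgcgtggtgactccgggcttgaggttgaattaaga
Only the first promoter listed for each gene was searched, and POLR1B, UBTF, RRN3, TAF1B, NPM1 and DDX21 have 2 listed. In these windows FBL alone of the 10 genes held CACGTG, which was in 10.2% of 9511 promoters of detected genes, and it also held CCGGAA. NCL and POLR1A held neither motif. CCGGAA was in 6 of the 10 promoters (POLR1B, POLR1C, RRN3, TAF1B, FBL and DDX21), against 30.7% of the 9511. The GC content was 70.3% in the NCL window, 67.7% in that of FBL and 44.7% in that of POLR1A, beside a median of 65.3% over the windows of detected genes.

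The rest of the pathway was read from 41 genes in 6 lists, all of them detected. In replicate 1, 15 of the 41 were over 2-fold lower, beside 20.1% of detected genes, and 1 was higher, beside 17.4%. Replicate 1 held the lowest of the 4 values in 24 of the 41, beside 37.5% of all detected genes. In replicates 2, 3 and 4, 2, 5 and 4 of the 41 were over 2-fold higher, beside 7.83%, 3.05% and 6.89% of detected genes. In the same replicates 0 were lower, beside 1.38%, 14.4% and 1.99%. The means used as reference for replicates 2, 3 and 4 included replicate 1, so low values there raise these differences. For the 41 genes the comparisons were not repeated without replicate 1. The GC content of the 41 genes was not examined. Over all detected genes, the share over 2-fold lower in replicate 1 rose from 5.35% in the lowest GC class to 36.9% in the highest.

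Of 10 other polymerase I subunits, POLR2L, a small subunit shared by all 3 nuclear polymerases, was the highest with 209 ± 23.6 TPM (SD, n = 4) and POLR2F, also shared, the lowest with 27.4 ± 8.33 (SD, n = 4). CD3EAP (POLR1G), which pairs with POLR1E, was at 7.21 TPM in replicate 1 and 51.7, 47.4 and 22.1 in the others. POLR2E, a shared subunit, was at 41.2 TPM in replicate 1 and 121, 124 and 109.7 in the others. Both were over 2-fold lower in replicate 1, and CD3EAP was over 2-fold higher in replicates 2 and 3. POLR1E, the SIRT7 substrate known as PAF53, was at 25.04, 43.5, 37.0 and 31.5 TPM, lowest in replicate 1 with a difference of -0.55 that did not reach the limit.

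Among 6 other initiation and termination factors, TAF1C, another SL1 subunit, was the one over 2-fold lower in replicate 1, at 9.70 TPM against 30.9, 16.8 and 24.9. TAF1A, also of SL1, was the lowest with 11.8 ± 2.86 (SD, n = 4), near TAF1B. PTRF (CAVIN1) was the highest of all 41 genes with 1013 ± 242 TPM (SD, n = 4). It releases terminated transcripts in the nucleus and is also a coat protein of caveolae at the plasma membrane, and the RNA level does not separate the 2 roles.

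Of 8 proteins of small nucleolar ribonucleoproteins, NOP10 was the highest with 291 ± 67.4 TPM (SD, n = 4) and GAR1 the lowest with 18.9 ± 9.85 (SD, n = 4), although both belong to the same H/ACA core. GAR1, DKC1, NHP2 and RRP9 were over 2-fold lower in replicate 1, with differences of -1.54, -1.12, -1.09 and -1.11. The partners of FBL in the C/D core, NOP56 and NOP58, did not pass the limit in any replicate. RRP9, the U3 particle protein that SIRT7 deacetylates, was at 23.1, 48.1, 80.9 and 34.1 TPM and was over 2-fold higher in replicate 3, as were GAR1 and FBL.

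Among 9 other nucleolar factors, 5 were over 2-fold lower in replicate 1: BOP1 (-2.68), TCOF1 (-2.50), NOP2 (-1.65), RRP1B (-1.21) and NOLC1 (-1.18). BOP1, which forms a complex with PES1 and WDR12 for the large ribosomal subunit, was at 20.1 TPM in replicate 1 and 135, 161 and 110.2 in the others, the highest mean of the list, and RRP1B had the lowest mean, 27.8 ± 10.5 TPM (SD, n = 4). In other replicates BOP1 and NOP2 were over 2-fold higher in replicate 3, and NOLC1 and TCOF1 in replicate 4. PES1 and WDR12 did not pass the limit, with differences of -0.57 and -0.08. TCOF1 (treacle), a partner of UBTF and the polymerase, was at 17.5 TPM in replicate 1 and 101, 80.5 and 137 in the others, while UBTF itself differed by -0.44.

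Of 4 factors that silence ribosomal DNA, BAZ2A, the large subunit of the nucleolar remodelling complex, had the highest mean. It was at 16.4, 69.0, 31.9 and 68.8 TPM, over 2-fold lower in replicate 1 and over 2-fold higher in replicates 2 and 4. Its ATPase partner SMARCA5 had the lowest mean, with 32.6, 32.9, 17.6 and 34.7 TPM, and only replicate 3 stood low. The histone methyltransferase SUV39H1 was over 2-fold lower in replicate 1, at 16.4 TPM against 36.0, 37.5 and 35.7.

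The largest subunits of the other polymerases did not move together in replicate 1. POLR2A was at 30.0 TPM in replicate 1 and 143, 75.6 and 159.8 in the others, and its partner POLR2B was at 89.9 TPM in replicate 1 and 36.1, 37.3 and 42.1 in the others. In that replicate POLR2A was over 2-fold lower and POLR2B, alone of the 41 genes, over 2-fold higher, and POLR2A was over 2-fold higher in replicate 4. POLR3B, the lowest of the 4 with 10.7 ± 2.46 TPM (SD, n = 4), and POLR3A stayed within the limit.

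**Figure D4:**
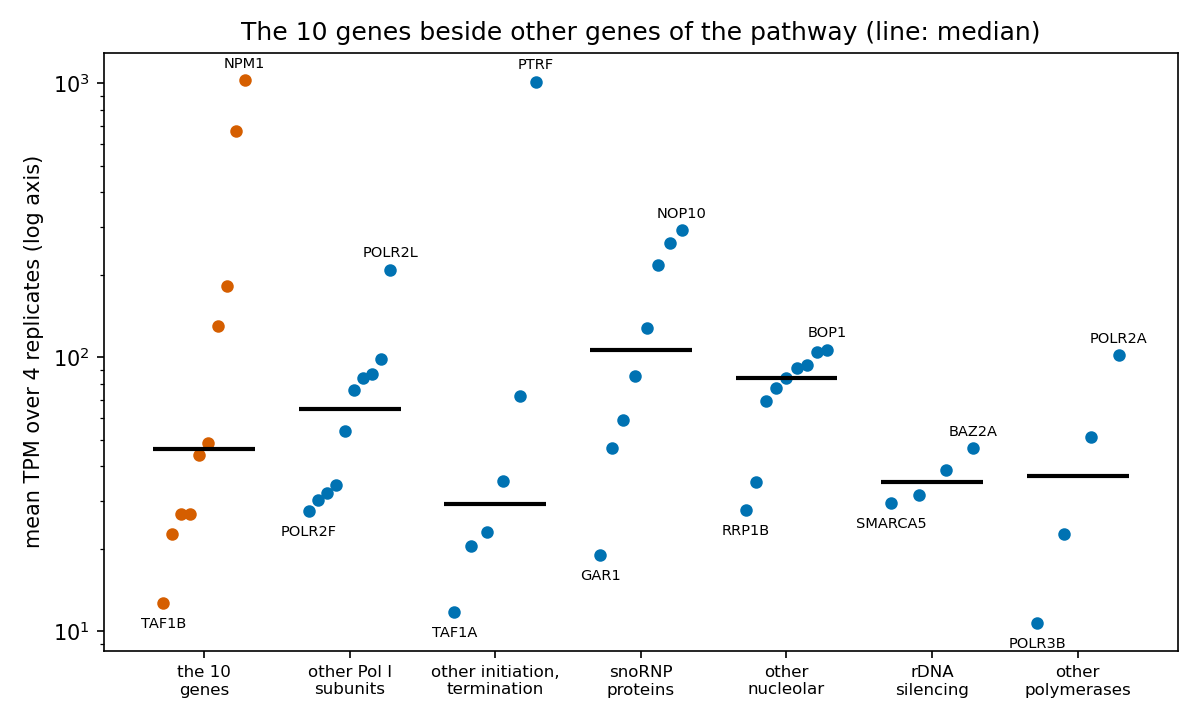
Mean TPM over 4 replicates (log axis) of the 10 genes (orange) and of 41 other genes of the pathway in 6 lists (blue), with a line at the median of each and the names of its highest and lowest gene. NPM1 and PTRF lie highest, at 1027 and 1013, and the median is 46.3 TPM for the 10 genes and 106 TPM for the 8 snoRNP proteins.

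SIRT7 (chromosome 17, 79869815 to 79876058, minus strand) was read beside its targets. Its level was 47.1, 55.8, 80.0 and 56.0 TPM in replicates 1 to 4, averaging 59.7 ± 14.1 (SD, n = 4), at percentile 75.6 of the detected genes. SIRT7 to POLR1A was 3.26 (3.08 to 3.45), 1.41 (1.29 to 1.54), 3.35 (3.11 to 3.60) and 1.92 (1.76 to 2.09), above 1 in every replicate. Replicates 1 and 3 overlapped and lay above replicates 2 and 4. This ratio rests on the gene length used. Its mean log2 value was 1.22 ± 0.61 (SD, n = 4) with the deposited lengths, 0.06 ± 0.61 (SD, n = 4) with the union of exons, where replicates 2 and 4 fell below 1, and -1.08 ± 0.61 (SD, n = 4) from counts alone.

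The product of RNA polymerase I itself could not be read from these files. Of 19 rRNA rows, 17 are genes of the small 5S rRNA, which RNA polymerase III transcribes, with 1 count in all, and 2 are the mitochondrial RNR1 and RNR2, which had 0 counts in replicate 1 and 16521 to 196152 counts in the others. None is a product of RNA polymerase I, so the levels given here are those of the machinery and not of its activity.

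As a description, the detected genes were ranked by how closely their 4 values followed the mean profile of the 10 genes, on the log2(TPM + 1) scale. GSTM3, RGS20 and POLDIP3 were the nearest, with root-mean-square distances of 0.02, 0.03 and 0.03, and 127 of 12155 genes were within 0.1. With 4 points, all from the same libraries, many genes lie as close, and the distance separates few of them.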

How the data were processed

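Total RNA of 4 untreated HaCaT replicates was sequenced by standard Illumina protocols after Trizol extraction and DNase I treatment. The submitters' processing notes name HISAT2, HISAT, TopHat2, Bowtie2 and hg19. The counting program, annotation and strand setting are not given in the sources used here. Raw counts and the length of each gene were deposited by the authors, beside RPKM for replicates 1 and 2 and TPM for replicates 3 and 4. Because the deposited RPKM and TPM units differ between replicates, TPM over protein-coding rows was computed from the counts and lengths in each replicate. Samples were grouped by their titles in 1 group, so no differential test was run.

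Detection was set at a mean TPM above 1, the fold limit at 2 and the pseudocount at 1, and folds of low genes are understated on the log2(TPM + 1) scale. Ratios have 95% Clopper-Pearson intervals. For differences within a replicate, signs were flipped in an exact permutation test (two-sided). The depth gives 3 counts as 0.0410 to 0.176 counts per 1000000, which covers counting error only. In no pair of replicates were more than 0.608% of detected genes equal in count, so the libraries are distinct. GC content and exon unions came from GENCODE release 29 (GRCh38) and were found for 97.7% and 97.6% of detected genes. The promoters of the 10 genes came from RefSeq GRCh38.p14, which held all 10, and the first listed for each gene was used. No coordinate was converted between builds.

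The 10 genes, the lists and the tests were chosen with earlier results of these data known. The text names the 10 genes, SIRT7, and from each list the highest, the lowest, those past the fold limit, subunits and SIRT7 substrates, with copies, overlapping rows, rRNA rows and the 3 nearest profiles. UBTF partners, C/D core proteins and PES1 and WDR12 were named after their values were seen. Alternatives were TPM over all rows, counts scaled to library size, the union of exons as length, the deposited values, pseudocounts of 0.1 and 0, other detection limits, a 1.5-fold limit, TMM (edgeR 4.0.16), median-of-ratios and upper-quartile scaling, and leaving out each replicate. The spread and the ranges of ratios over replicates 2 to 4 were added after seeing the data. The fold step was tested on simulated data without a shift in base composition like that of replicate 1, so that test does not cover such a shift. Software was R 4.3.3 and Python 3.11.15 with pandas 2.3.3, NumPy 2.4.6, matplotlib 3.10.9 and SciPy 1.17.1.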

Additional observations from a re-analysis of the deposited data

Results flagged for a closer look

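In 62 sets of 4 values (the 10 genes, SIRT7, the 41 pathway genes and the 10 ratios), 6 held 1 replicate whose gap to its nearest neighbour, as a part of the whole range, passed Dixon's 95% critical value for 4 samples. Chance gives about 1 in 20, or 3.10 sets, and the sets are not independent. Replicate 1 was the outlying one in 5 of the 6. NCL was low there at 231 TPM against 783 to 863, a gap of 0.873 of the range, and the ratio of NPM1 to NCL was high at 5.17 against 0.925 to 1.53, a gap of 0.858. POLR2E was low with a gap of 0.8291, SUV39H1 was low with a gap of 0.913, and POLR2B was high with a gap of 0.889. SMARCA5 was low in replicate 3 at 17.6 TPM against 32.6 to 34.7, a gap of 0.877. The causes were not tested.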

How the results depend on the processing

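No paired analysis was possible because the samples form 1 group. The nucleolar gene was above the machinery gene in every replicate in 24 of 24 pairs under each alternative run except counts scaled to library size without length correction, where it was in 20. Of the 10 genes, 3 kept their place in the order by counts scaled to library size, 4 with the union of exons as length, and between 6 and 10 when 1 replicate was left out (6 without replicate 3). Pairs of neighbours with 1 order in every replicate, 4 as reported, ranged from 4 to 6 with 1 replicate left out, and ratios on 1 side of 1, 7 as reported, from 7 to 8, but were 5 with the union of exons and 9 from counts. Values past 2-fold, 4 as reported, were 17 with TPM over all rows, 10 at a 1.5-fold limit and between 0 (without replicate 1) and 5 (without replicate 4) with 1 replicate left out. NCL in replicate 2 also passed without replicate 3, at 1.02, and POLR1A in replicate 2 without replicate 4, at 1.05. The same 4 values passed with TMM, median-of-ratios and upper-quartile scaling, a pseudocount of 0.1 and both other detection limits.

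Mean log2 differences between neighbours changed sign for FBL and DDX21 (-1.71 by counts scaled to library size, -0.51 with the union), POLR1C and UBTF (-1.70, -1.35), RRN3 and POLR1A (-1.11 by counts scaled to library size) and POLR1A and POLR1B (-0.26 with the union). With 1 replicate left out, POLR1C minus UBTF lay between -0.028 and 0.35 and RRN3 minus POLR1A between -0.23 and 0.32, both reaching below 0. The log2 ratio of POLR1C to POLR1A was -1.61 from counts and -0.32 with the union, and that of SIRT7 to POLR1A was -1.08 from counts. The gene length made these changes by construction. Depth limits TAF1B most, with 202 counts at its lowest.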
